A study of Bos taurus with 57 samples.

Results

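ENSBTAG00000009468, ENSBTAG00000001938, ENSBTAG00000023938 and ENSBTAG00000013573 are 4 of the 24616 genes counted in tissues of the hypothalamic-pituitary-testicular axis of bull calves. They were chosen from the anterior pituitary, where they ranked 1, 2, 4 and 5 by p-value in the comparison of the low with the high plane of nutrition, and where all 4 were lower on the low plane. The gene ranked 3 in that comparison was higher on the low plane and is not among them. The files list Ensembl identifiers alone and the reference table used here pairs none of the 4 with a symbol, so their functions, positions and sequences are not described. The comparison asks how feeding in early calfhood alters transcription along this axis.

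Neurons of the arcuate nucleus (ARC) at the base of the hypothalamus respond to metabolic state and influence the release of gonadotrophin-releasing hormone. The anterior pituitary answers that signal with LH and FSH, which act on the Leydig and Sertoli cells of the testes. Feeding in early life is known to alter the timing of sexual development in dairy bulls.

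All calves were male Holstein Friesians euthanised at 126 days of age, and whole dissected tissue was sequenced. High plane calves grew at 1.08 kg/day by the sample labels, or 1.2 kg/day by the design text, on a larger allowance of milk replacer with concentrate ad libitum. Low plane calves grew at 0.5 kg/day on less milk replacer and a restricted amount of concentrate. The ARC had 10 libraries per plane, the anterior pituitary 9 on the high and 10 on the low plane, and the testes 10 on the high and 8 on the low plane. The authors had removed 1 high plane pituitary and 2 low plane testes samples for low read numbers.

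Pituitary libraries held 6895844 to 27426173 reads on genes, testes libraries 8586953 to 26067610 and ARC libraries 898979 to 32009433. The shallowest was C22, a high plane ARC library, where 3 reads correspond to 3.34 CPM, the reads of a gene scaled to a common library size. Each of the 57 libraries resembled the other libraries of its labelled tissue most closely across genes, including a testes library labelled A48 whose file header carries another letter. Some stood apart all the same, with a median r across genes under 0.95 with their own tissue. These were A57, A18 and A51 of the 9 high plane and A47 and A10 of the 10 low plane pituitary libraries (0.844 to 0.902, against 0.976 or more for the rest), 3 of the 20 ARC libraries including C6 and C22, and 1 of the 10 high plane and 5 of the 8 low plane testes libraries. C44, a high plane ARC library, was not among the libraries that stood apart (0.96 with its own tissue). Its median r with testes libraries, 0.899, was the highest in the ARC, ahead of C8 at 0.847. It also had the most genes with a read in the ARC, 19401. Hormone and cell type markers could not be checked, because genes could not be named. The 3 tissues were taken from the same calves, but the labels record neither batch nor calf, so libraries of a calf could not be matched. Within tissues, CPM were scaled by TMM, which assumes that most genes do not differ. They are compared only between libraries for 1 gene, because gene lengths were not used.

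In the anterior pituitary all 4 genes were lower in every low plane library than in any high plane library. In whole tissue, fewer cells of a type and less RNA per cell cannot be told apart. ENSBTAG00000009468 ran from 1.46 to 3.78 CPM on the high plane, with a median of 2.85 and a mean of 2.90 ± 0.803 (SD, n = 9), and from 0.582 to 1.17 CPM on the low plane, with a median of 0.891 and a mean of 0.891 ± 0.198 (SD, n = 10). ENSBTAG00000001938 ran from 7.93 to 13.3 CPM on the high plane, with a median of 9.78 and a mean of 10.4 ± 1.69 (SD, n = 9), and from 2.33 to 6.36 CPM on the low plane, with a median of 3.42 and a mean of 3.67 ± 1.16 (SD, n = 10). The planes came closest for the first gene in A11, the lowest high plane library, and A4, the highest low plane library, and for the other gene in A29 and A27. ENSBTAG00000023938 ran from 1.96 to 4.41 CPM on the high plane, with a median of 2.46 and a mean of 2.75 ± 0.793 (SD, n = 9), and from 0.270 to 1.22 CPM on the low plane, with a median of 0.640 and a mean of 0.687 ± 0.298 (SD, n = 10). ENSBTAG00000013573 ran from 5.34 to 13.4 CPM on the high plane, with a median of 7.72 and a mean of 8.21 ± 2.43 (SD, n = 9), and from 1.05 to 4.83 CPM on the low plane, with a median of 1.95 and a mean of 2.25 ± 1.08 (SD, n = 10). A29 was again the lowest high plane library and A27 the highest low plane library for both genes.

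**Figure D1:**
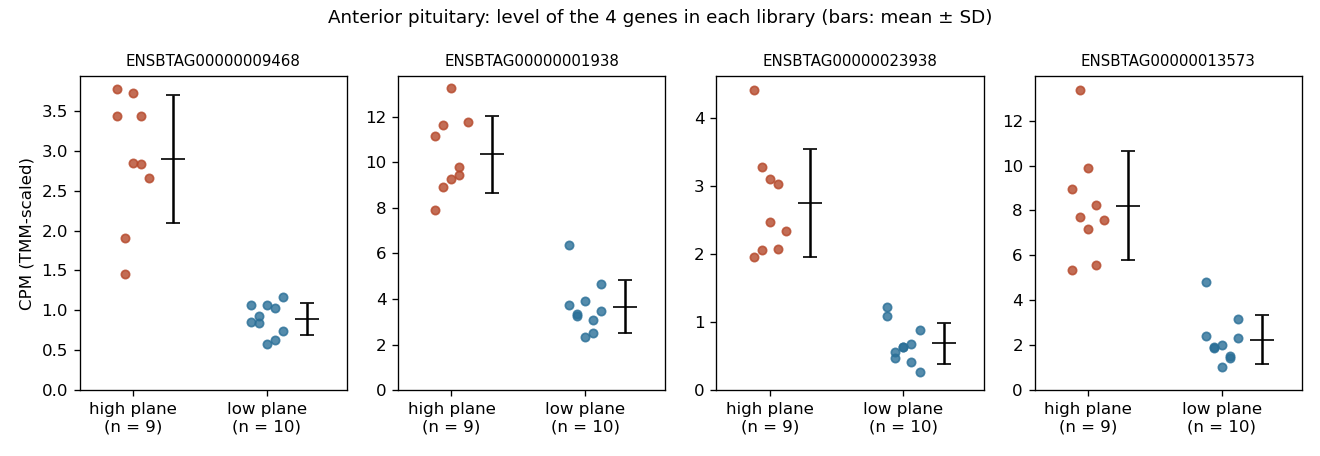
Level of each of the 4 genes in the anterior pituitary, in TMM-scaled CPM on a linear axis from 0, with 1 point per library and the mean ± SD beside each plane of nutrition (n = 9 high, n = 10 low). The 10 low plane points lie below the 9 high plane points in every panel (for ENSBTAG00000013573, at most 4.83 CPM on the low plane and at least 5.34 CPM on the high plane).

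The log2 fold change of the low relative to the high plane in the anterior pituitary was -1.70 for ENSBTAG00000009468 (standard error 0.20, 95% interval -2.12 to -1.28), a level 3.25 times higher on the high plane. It was -1.49 for ENSBTAG00000001938 (standard error 0.18, -1.87 to -1.12). ENSBTAG00000023938 gave -1.96 (standard error 0.25, -2.48 to -1.44) and ENSBTAG00000013573 gave -1.86 (standard error 0.25, -2.39 to -1.33), or 3.89 and 3.62 times higher on the high plane. The intervals of the 4 overlapped, so no order of size among them is drawn. Without the 5 pituitary libraries that stood apart, a choice made after seeing the data, the 4 values were -1.67, -1.38, -1.84 and -1.85 in the order given. No p-value is given, because the genes were chosen for this contrast. Of the 14411 genes tested in the pituitary, 0.16% were lower in every low plane library than in any high plane library, and 0.493% had a false discovery rate (FDR) under 0.05 with a lower level on the low plane. Both counts were part of the choice and nothing is read from them. Just inside the choice stood ENSBTAG00000013573, and just outside it, at rank 6, a gene at -1.46 (standard error 0.21).

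Few reads lay behind these levels. In the pituitary, libraries held 10 to 81 reads of ENSBTAG00000009468 and 3 to 55 reads of ENSBTAG00000023938, compared with 30 to 223 reads of ENSBTAG00000001938 and 14 to 224 of ENSBTAG00000013573. Counting alone would give ENSBTAG00000009468 a coefficient of variation of 26.4% among the low plane pituitary libraries, and 22.2% was observed. Its variation beyond counting error within that group was therefore not detectable at this depth. The observed variation was above the counting error for the other 3 genes there, at 31.7% against 13% for ENSBTAG00000001938, 43.4% against 30% for ENSBTAG00000023938 and 47.9% against 16.6% for ENSBTAG00000013573.

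In the ARC the groups overlapped for all 4 genes. ENSBTAG00000009468 varied over a wide range on both planes, from 0.388 to 6.22 CPM on the high plane (median 1.03) and from 0.236 to 5.12 CPM on the low plane (median 1.39). Its log2 fold change was 0.22 with an interval of -0.83 to 1.27, which spans the median of all 14757 genes tested there, -0.010. ENSBTAG00000001938 had medians of 1.86 and 1.33 CPM on the high and low planes, and its log2 fold change was -0.31 (-1.04 to 0.42). Leaving out single libraries moved it at most to -0.68, without C6, and to -0.082, without C44, and it was -0.76 without the 3 ARC libraries that stood apart. C44 had the highest high plane value of this gene in the ARC, 4.89 CPM, and was the ARC library closest to the testes. The part of that closeness in its value was not tested. ENSBTAG00000009468 moved at most to -0.093, without C8, and to 0.52, without C37. Intervals this wide do not show that the planes were alike.

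ENSBTAG00000013573 had a narrower interval in the ARC. It ran from 2.72 to 7.26 CPM on the high plane (median 3.77) and from 2.33 to 4.23 CPM on the low plane (median 2.78), with 5 of the 10 low plane libraries below every high plane library. Its log2 fold change was -0.49 (standard error 0.18) with a 95% interval of -0.87 to -0.11. Lower values were found for 4.66% of the genes tested. ENSBTAG00000023938 did not pass the filter on low counts in the ARC, where it had medians of 0.676 and 0.427 CPM on the high and low planes. Without the filter its log2 fold change there was -0.63, and it was -0.55 in 1 fit over all libraries. Both rest on 3 to 40 reads per library.

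The testes gave small differences in the same direction for 3 of the 4 genes. ENSBTAG00000001938 ran from 13.1 to 25.6 CPM on the high plane (median 18.3) and from 13.01 to 21.8 CPM on the low plane (median 15.6), a log2 fold change of -0.23 (-0.53 to 0.067). ENSBTAG00000023938 had medians of 4.01 and 3.21 CPM and a log2 fold change of -0.42 (-0.82 to -0.013). ENSBTAG00000013573 had medians of 17.6 and 12.9 CPM and a log2 fold change of -0.35 (-0.64 to -0.059). High and low plane libraries overlapped in each case. Among the 9 high and 3 low plane libraries close to their tissue the values were -0.30, -0.69 and -0.47. The 3 values over all testes libraries, -0.23, -0.42 and -0.35, lay within the interquartile range of the 15310 genes tested there, -0.53 to 0.36. That range was not computed for the libraries close to their tissue. ENSBTAG00000009468 did not pass the filter in the testes, where no library held more than 18 reads of it. Its median was higher on the low than on the high plane, at 0.724 against 0.487 CPM. Without the filter its log2 fold change there was 0.51, and it was 0.53 in 1 fit over all libraries.

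**Figure D2:**
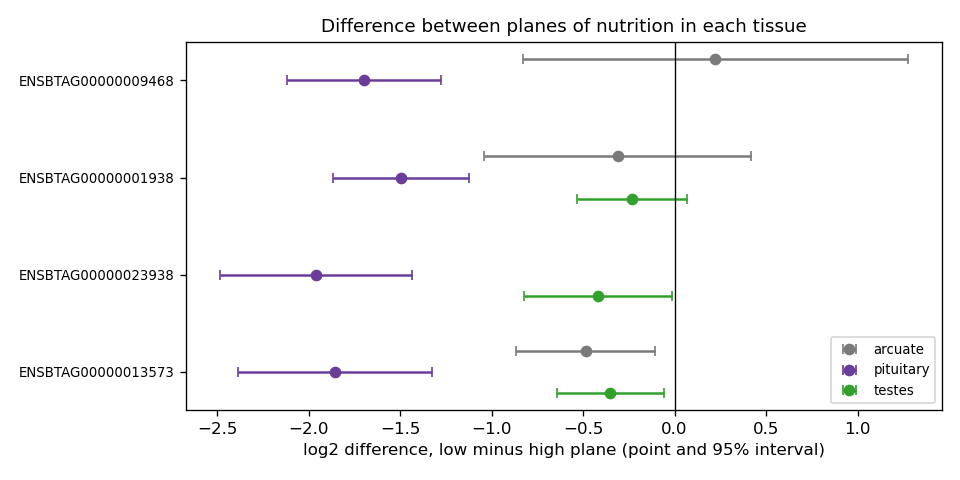
Log2 fold change of the low relative to the high plane for the 4 genes in each tissue, with points for the estimate, bars for the 95% interval and a vertical line at 0. Pituitary values lie between -1.96 and -1.49, and all other plotted estimates lie between -0.49 and 0.22. ENSBTAG00000023938 in the ARC and ENSBTAG00000009468 in the testes have no point because they did not pass the filter.

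The estimate was lowest in the pituitary for all 4 genes. Outside the pituitary, the 95% intervals of ENSBTAG00000013573 in both tissues and of ENSBTAG00000023938 in the testes lay below 0. These intervals are not adjusted for the number of genes tested and are not calls. In 1 fit over the 57 libraries, the pituitary fold change was lower than that of the ARC by a log2 difference of -1.95 for ENSBTAG00000009468 (95% interval -3.03 to -0.87), -1.28 for ENSBTAG00000001938 (-2.01 to -0.55), -1.44 for ENSBTAG00000023938 (-2.30 to -0.59) and -1.44 for ENSBTAG00000013573 (-1.98 to -0.90). The corresponding differences from the testes were -2.27, -1.31, -1.58 and -1.54, with no interval reaching above -0.58. These are descriptions, since the genes were picked for a pituitary difference that the other tissues did not match. ENSBTAG00000023938 in the ARC and ENSBTAG00000009468 in the testes had not passed the filter. They entered the joint fit through the tissues where they are higher. The value of -2.27 thus rests on testes libraries with 1 to 18 reads of ENSBTAG00000009468.

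Levels were compared between tissues in that joint fit, with CPM scaled over all tissues. The 4 genes did not share 1 pattern. ENSBTAG00000001938, ENSBTAG00000023938 and ENSBTAG00000013573 had their highest medians in the testes on both planes, whereas ENSBTAG00000009468 had its lowest there. Contrasts with the pituitary within a plane use the values that chose the genes, so that a change of such a contrast between the planes restates the pituitary difference, and they are given without a test. The joint fit treats the tissues of a calf as independent.

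ENSBTAG00000009468 had medians of 3.44 CPM in the pituitary, 0.975 in the ARC and 0.459 in the testes on the high plane. On the low plane they were 1.01, 1.41 and 0.659 CPM. The testes were lower than the ARC by a log2 difference of -1.92 (standard error 0.40) on the high plane and -1.61 (standard error 0.42) on the low plane. No test is given, because this gene did not pass the filter in the testes and entered the joint fit through the tissues where it is higher. The pituitary was 2.13 times above the ARC on the high plane and 1.82 times below it on the low plane.

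ENSBTAG00000001938 had medians of 16.5, 10.9 and 1.78 CPM in testes, pituitary and ARC on the high plane, and 14.1, 3.97 and 1.30 CPM on the low plane. It was higher in testes than in ARC by 8.15 times on the high plane and 8.3 times on the low plane (FDR 9.5e-15 and 2.78e-14 with edgeR's quasi-likelihood test). Such calls were common, as 37.9% and 34.3% of the 16476 genes tested were higher in testes than in ARC on the high and low planes. Relative to the pituitary, the testes were 1.43 times higher on the high plane and 3.53 times higher on the low plane.

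ENSBTAG00000023938 followed the same order, with medians of 3.64, 2.84 and 0.640 CPM in testes, pituitary and ARC on the high plane and 2.84, 0.731 and 0.407 CPM on the low plane. The testes were above the ARC by a log2 difference of 2.45 (standard error 0.30) on the high plane and 2.58 (standard error 0.31) on the low plane, given without a test because the gene did not pass the filter in the ARC. The pituitary was 4.47 times above the ARC on the high plane and 1.64 times on the low plane.

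ENSBTAG00000013573 had medians of 15.9, 9.17 and 3.61 CPM in testes, pituitary and ARC on the high plane. The low plane medians were 11.6, 2.24 and 2.68 CPM. It was higher in testes than in ARC by 3.88 times on the high plane and 4.16 times on the low plane (FDR 3.72e-13 and 2.53e-13 with edgeR). The pituitary stood 2.49 times above the ARC on the high plane and near its level on the low plane (log2 -0.12, standard error 0.19).

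**Figure D3:**
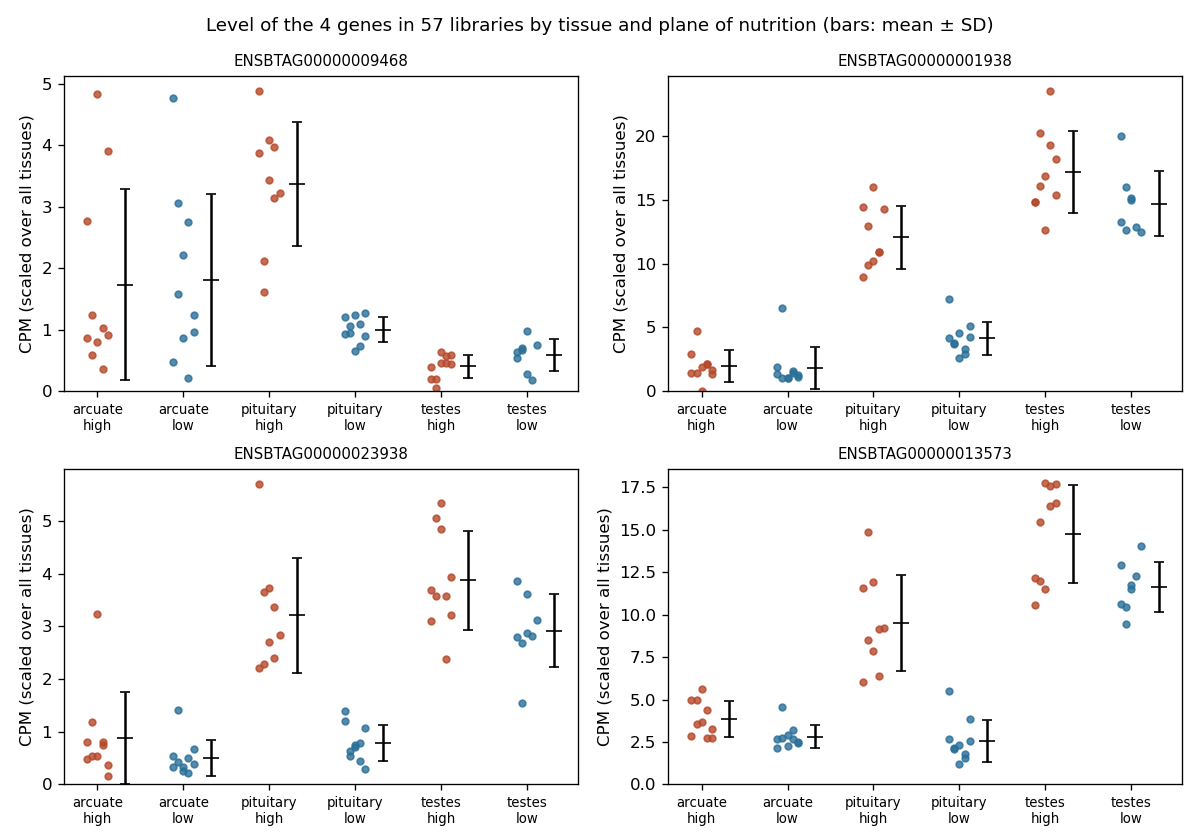
Level of the 4 genes in all 57 libraries, in CPM scaled over all tissues on linear axes from 0, with 1 point per library and the mean ± SD for each tissue and plane of nutrition. ENSBTAG00000009468 has its lowest medians in the testes (0.459 and 0.659 CPM), and the other 3 genes have their highest medians there, while in the pituitary each gene is higher on the high plane.

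Whether the 4 genes rose and fell together was examined within each plane of nutrition, where the difference between the planes cannot contribute. Log2 CPM of the 6 pairs were correlated in each tissue and plane, 36 relations in all, with permutation p-values adjusted over the 36. No pair had an adjusted p under 0.05, and 9 had an unadjusted p under 0.05. ENSBTAG00000001938 and ENSBTAG00000013573 had the highest r in low plane pituitary libraries. Their Pearson's r was 0.879 (permutation p = 0.00142, adjusted p = 0.0511, n = 10) and Spearman's rho was 0.867 (permutation p = 0.00243, adjusted p = 0.0875). Without A27 and A14, the highest and the lowest library for both genes, r fell to 0.592. On the high plane r was 0.736 (exact permutation p = 0.023, adjusted p = 0.112, n = 9) and rho was 0.700 (exact permutation p = 0.0433, adjusted p = 0.195), and r was 0.605 without A18 and A29. Of all other genes compared on the high plane, 16.3% were at least as close by r to ENSBTAG00000001938 and 0.382% to ENSBTAG00000013573. The low plane shares were 0.0416% and 0.173%. Among pituitary libraries close to their tissue, the pair had an r of 0.948 on the low plane (adjusted exact permutation p = 0.0143, n = 8) and 0.874 on the high plane (adjusted exact permutation p = 0.12, n = 6).

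**Figure D4:**
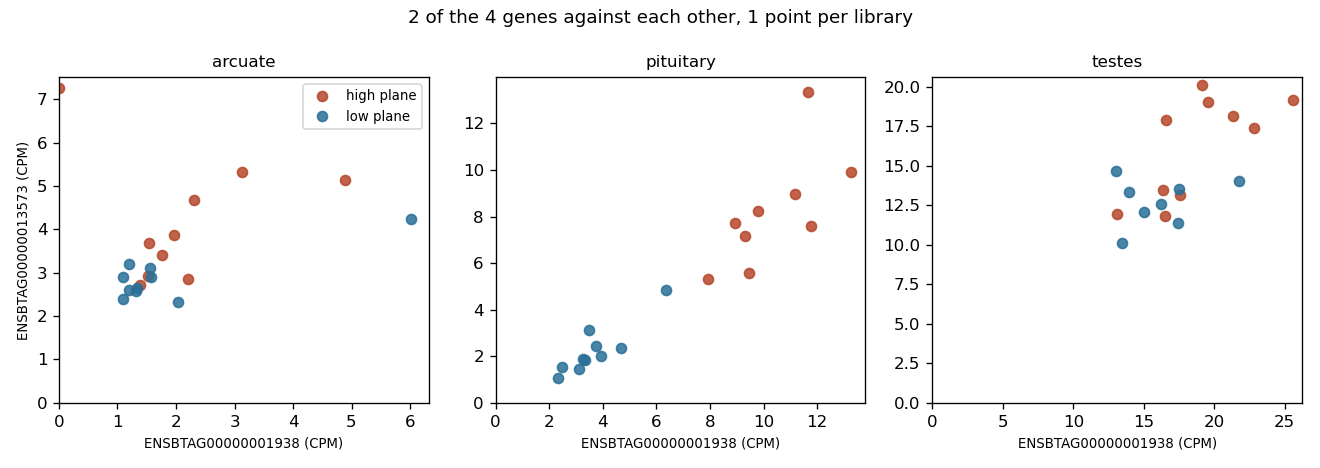
ENSBTAG00000013573 against ENSBTAG00000001938 in the 3 tissues, in TMM-scaled CPM on linear axes, with 1 point per library coloured by plane of nutrition. In the pituitary the points rise together within each plane, and A27 is the low plane point farthest to the upper right, at 6.36 and 4.83 CPM, while in the ARC the point on the vertical axis is the shallow library C22.

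With each plane centred on its own mean and both pooled, which gives 18 relations over the 3 tissues, this pair had an r of 0.839 over the 19 pituitary libraries (permutation p = 0.0001, adjusted p = 0.0018) and a rho of 0.784 (permutation p = 0.00024, adjusted p = 0.00432). The r was 0.666 without A27 and A14, 0.744 without A27 alone and 0.906 over the 14 libraries close to their tissue, the latter 2 chosen after the values were seen. In the testes the pair gave r = 0.574 (permutation p = 0.0177, adjusted p = 0.0799, n = 18). In the ARC it gave r = -0.171 (permutation p = 0.588, n = 20), a value that C22 and C6 decide, since without them r was 0.449, or 0.615 with the planes centred again. C22 held 0 reads of ENSBTAG00000001938, a count that allows up to 3.34 CPM.

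ENSBTAG00000023938 also rose with ENSBTAG00000013573 in the pituitary. On the high plane r was 0.723 (exact permutation p = 0.0279, adjusted p = 0.112, n = 9), or 0.826 without A57 and A39, and rho was 0.833 (exact permutation p = 0.00827, adjusted p = 0.128). By rho this pair was thus the closer of the 2 there. The low plane r was 0.522 (permutation p = 0.12, adjusted p = 0.296, n = 10). With both planes centred r was 0.582 (permutation p = 0.016, adjusted p = 0.0799, n = 19) and rho was 0.665 (permutation p = 0.00356, adjusted p = 0.032), and r was 0.439 without A27. In the ARC the same pair reached r = 0.726 with both planes centred (permutation p = 0.0011, adjusted p = 0.0099, n = 20), with a rho of 0.540 (permutation p = 0.0227, adjusted p = 0.131), but r was 0.406 without C22 and C6 with the planes centred again.

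ENSBTAG00000009468, the gene with the smallest p-value, had the lowest mean r with the others on the high plane and with both planes centred, but not on the low plane. There its r with ENSBTAG00000001938 in the pituitary was 0.774 (permutation p = 0.00705, adjusted p = 0.0846, n = 10), or 0.508 without A14 and A35. Its rho was 0.782 (permutation p = 0.0107, adjusted p = 0.128). In these low plane libraries its variation was not above counting error, at 22.2% observed against 26.4%, so nothing is read from its r there. On the high plane the same pair gave r = -0.084 (exact permutation p = 0.829, n = 9). ENSBTAG00000009468 with ENSBTAG00000013573 gave -0.445 on the high plane (exact permutation p = 0.231, n = 9) and 0.473 on the low plane (permutation p = 0.167, n = 10). Without A11 and A39 the high plane r was -0.338, and without A14 and A35 the low plane r was -0.041. The difference between the planes in these correlations was not tested. With both planes centred, its r was -0.060 with ENSBTAG00000023938 and 0.033 with ENSBTAG00000013573.

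**Figure D5:**
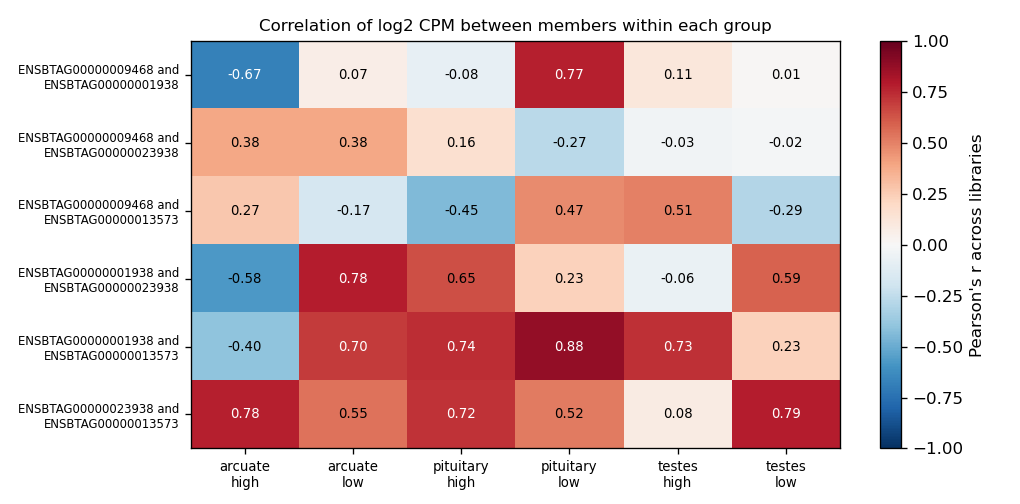
Pearson's r of log2 CPM for the 6 pairs of genes in each tissue and plane of nutrition, from blue at -1 to red at 1, with the value printed in each cell (8 to 10 libraries). The 6 pituitary pairs run from -0.445 to 0.736 on the high plane and from -0.269 to 0.879 on the low plane, and the pair of ENSBTAG00000001938 and ENSBTAG00000013573 is positive everywhere but in the high plane ARC libraries. There r is -0.400, but rho was 0.309, and r was 0.767 without the shallow library C22 and C44.

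The ranks of single libraries differed between the genes. Of the 10 low plane pituitary libraries, A27 ranked highest for 3 of the 4 genes and next to highest for ENSBTAG00000009468. A14 ranked lowest for 3, but in the middle for ENSBTAG00000023938. A4 was highest for ENSBTAG00000009468 and lowest for ENSBTAG00000023938. On the high plane, A29 was lowest for 3 genes but ranked 6 from the lowest for ENSBTAG00000009468, for which A11 was lowest.

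Measures of the library moved with some members, and their part in the correlations between genes was tested by partial correlation alone. In high plane pituitary libraries ENSBTAG00000023938 had an r of -0.710 with log2 total count and -0.850 with the log2 TMM factor, and ENSBTAG00000013573 had an r of -0.767 with the TMM factor. The TMM factor is part of the divisor of these CPM, and its share in these r was not tested. On the low plane the 4 genes had r between -0.467 and 0.439 with total count. The first principal component of all tested genes took 90% of the variance among high plane and 85.5% among low plane pituitary libraries. The members' r with it ran from 0.230 to 0.746 on the high plane and from 0.088 to 0.249 on the low plane. The sign of the component was set to rise with the mean of the 4 genes, so nothing is read from the direction. For ENSBTAG00000001938 with ENSBTAG00000013573 on the high plane, r was 0.789 given that component, 0.687 given total count and 0.533 without TMM factors. Without TMM factors, high plane pituitary pairs with an unadjusted p under 0.05 went from 2 to 0. The low plane r of the same pair was 0.884, 0.915 and 0.917 under the same settings.

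The mean r of each gene with the other 3 in the pituitary, within planes, was 0.513 for ENSBTAG00000001938 and 0.485 for ENSBTAG00000013573. Among all genes tested, 0.153% and 0.243% had a higher mean r with the same 3 genes. Both means include the r of these 2 genes with each other, 0.839, or 0.744 without A27. The r of ENSBTAG00000001938 with ENSBTAG00000023938 was 0.339, or 0.082 without A27. For ENSBTAG00000023938 the mean r was 0.287, with 14.8% of genes higher, and for ENSBTAG00000009468 it was 0.112, with 41.6% higher. These are descriptions over 19 libraries, each with 1 depth and composition common to all its genes.

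The genes most like the 4 over the 19 pituitary libraries were ranked, among 14407 others, by their mean within-plane r with the members. ENSBTAG00000008216 came first with a mean r of 0.661 and ENSBTAG00000002331 next with 0.651, and the tenth had 0.618. The median over all genes was -0.075 and the 95th percentile 0.346. Their own log2 fold changes between the planes in the pituitary were -2.43 for both, and those of the nearest 10 ran from -2.45 to -1.78. All 10 had an FDR under 0.05 with edgeR, between 0.00343 and 0.0301, beside the 0.493% of all genes tested that were called lower. These FDRs are descriptions. The 10 were picked in the same libraries by correlation with genes chosen for this contrast, so they are not separate support for it. In the testes the log2 fold changes of the same 10 genes ran from -0.44 to 0.56, with 4 of them below 0. In the ARC, where 8 were tested, they ran from -0.84 to -0.086. Ranking by the high plane libraries alone gave 0 of the same 10 genes, and by the low plane libraries alone 7. The mean r of these 10 with the members was still 0.526 to 0.625 on the high plane alone, where other genes ranked higher. On the low plane alone it was 0.680 to 0.728.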

How the data were processed

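RNA from arcuate nucleus, anterior pituitary and testes was made into single-end TruSeq mRNA libraries. The authors deposited, for each of 57 libraries, whole-number read counts per Ensembl gene without normalization. Their processing notes name CASAVA 1.4, STAR, HTSeq and edgeR, without roles, and genome build, annotation and strand setting are not given in the sources used here. Overlapping or near-identical genes could therefore share reads.

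The 4 genes and all lists were chosen with earlier results of these data known. Groups follow the labelled tissue and diet. Replicate codes were not shared between groups, so no pairing was used, and because the labels name no calf, the tissues of a calf were treated as independent and p-values measure the spread between these samples. In R 4.3.3 with edgeR 4.0.16, each tissue was filtered by filterByExpr on diet, scaled by TMM and fitted by glmQLFit and glmQLFTest, low against high plane, with Benjamini-Hochberg adjustment over all genes (FDR threshold 0.05). The filter kept 14757, 14411 and 15310 genes in arcuate nucleus, pituitary and testes. It passed 4 of the 4 genes in the pituitary and 3 of the 4 in each other tissue. Tissues were compared in 1 fit over all libraries (16476 genes), with FDR given only for testes against arcuate nucleus in the 2 genes that passed the filter in both. The other planned tissue contrasts are given as descriptions, because they use the values that chose the genes or a tissue in which the gene did not pass the filter. Intervals are 95%. Correlations used log2 CPM (prior count 2) with two-sided p-values, exact over all permutations below 10 libraries and otherwise from 100000 resamples, in Python 3.11.15 with scipy 1.17.1. The r without 2 libraries leaves out those farthest from the median of the first gene named, without centring again. Genes named beyond the 4 were to be ranks 1 to 8 of the pituitary fit and the 10 genes most correlated with the 4, but only 2 of these are given by identifier because the genes have no names here.

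Alternatives were DESeq2 1.42.0 and its size factors, edgeR's exact test, limma 3.58.1 voom with quality weights, other filters, total count as covariate, library totals without TMM factors, other correlation settings and leaving out single libraries. Leaving out A27, C22 and C6, or the libraries that stood apart, was added after seeing the data. Planned gene lists (12), marker lists (11) and promoter motifs were not used, since 0 of the 37063 rows of the RefSeq table used hold an Ensembl identifier. Totals ran from 898979 to 32009433 reads, and counting error was largest in the shallow library C22. Between 2 libraries of a group, chi-square per degree of freedom was at least 2.77, so no library was treated as a repeat.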

Additional observations from a re-analysis of the deposited data

Results flagged for a closer look

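Within each tissue and plane, 24 groups of values were searched for a single library far from the others by Dixon's criterion, and 4 values met it. Chance would give about 1.2, but only for independent groups of normal values. The genes share libraries, each with 1 scaling factor, so nothing is read from that comparison. All 4 were the highest ARC values of their gene within a plane. C6, a low plane ARC library, had 6.02 CPM of ENSBTAG00000001938 (37 reads), with the next library at 2.04 CPM. It also had 4.23 CPM of ENSBTAG00000013573 (26 reads), with the next at 3.21 CPM, and 1.30 CPM of ENSBTAG00000023938 (8 reads), with the next at 0.720 CPM. C6 had the lowest total count of the low plane ARC libraries, 8670087 reads, and a TMM factor of 0.7095, the lowest in the ARC. C22, the shallow high plane ARC library, had 4.15 CPM of ENSBTAG00000023938, from 4 reads, with the next library at 1.22 CPM from 40 reads. On library totals without TMM factors, C6 had 2.9988 CPM of ENSBTAG00000013573, below C34 at 3.0676 and C24 at 3.019. C6 stayed highest for ENSBTAG00000023938, at 0.9227 CPM with C43 next at 0.7643. It stayed highest for ENSBTAG00000001938, at 4.2675 CPM with C8 next at 2.3136. C22 had 4.4495 CPM of ENSBTAG00000023938, with C44 next at 1.3087. The criterion was not applied to library totals, so the part of depth or scaling in meeting it was not tested. No pituitary or testes library met the criterion for any of the 4 genes.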

How the results depend on the processing

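The difference between the planes kept its direction for all 4 genes in the pituitary under every alternative run. The log2 fold change there ran from -1.74 to -1.64 for ENSBTAG00000009468, from -1.53 to -1.37 for ENSBTAG00000001938, from -1.99 to -1.84 for ENSBTAG00000023938 and from -1.88 to -1.79 for ENSBTAG00000013573, and leaving out single libraries gave -2.09 to -1.44 over the 4. In the ARC, leaving out single libraries moved ENSBTAG00000009468 from -0.093 to 0.52, on both sides of 0, and ENSBTAG00000001938 from -0.68 to -0.082. The testes against ARC calls of ENSBTAG00000001938 and ENSBTAG00000013573 held under each alternative run. Among the 36 correlations, 1 passed in place of 0 under library totals without TMM factors, given log2 total count, given the first principal component and among pituitary libraries close to their tissue, and each time it was that of ENSBTAG00000001938 with ENSBTAG00000013573 in low plane pituitary libraries (r of 0.917, 0.915, 0.884 and 0.948, adjusted permutation p of 0.0054, 0.0133, 0.0482 and 0.0143). The sign of r changed for ENSBTAG00000009468 with ENSBTAG00000023938 on the high plane, to -0.042 given total count and -0.198 among libraries close to their tissue, and for ENSBTAG00000001938 with ENSBTAG00000023938 on the low plane, to -0.252 without A27. Leaving out A27 and the libraries that stood apart were alternatives chosen after seeing the data. Of the 10 nearest genes, 0 were shared when the high plane libraries alone were used and 5 with Spearman's rho. The causes were not tested. The stricter filter, CPM above 1 in every library, kept 1 of the 4 genes in the ARC, 2 in the pituitary and 3 in the testes, and no alternative was run on the gene lists, whose genes could not be named. No paired analysis was possible because no replicate code is shared between groups.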
